A study of Mus musculus with 7 samples.

Results

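Integrins are cell surface receptors made of 1 alpha and 1 beta chain, and laminins are basement membrane proteins made of an alpha, a beta and a gamma chain. The genes described here are 37 integrin and laminin genes chosen by symbol, all of which were listed among the 21892 gene symbols measured in 7 mouse tumor libraries. They comprise 18 integrin alpha genes, 8 integrin beta genes, the integrin-like gene Itgbl1, 5 laminin alpha genes, 3 laminin beta genes and the gamma genes Lamc1 and Lamc3. By where each chain is known to be used most, they were sorted into 10 epithelial, 18 stromal and 9 leukocyte or platelet subunits. Several chains of the stromal class, among them Itgb1, Itgav, Itgb5, Lamb1 and Lamc1, are made by most cells, so the class name is a label and not a source.

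The tumors carried an exon 19 deletion of Egfr and were grown under the skin of C57BL/6 mice, and each group gave 1 library. The groups were vehicle at day 3, gefitinib for 3 days, gefitinib for 14 days, and 4 groups at day 21, in which 14 days of gefitinib were followed by 7 days on vehicle, on DC101, on 4H2 or on the antibody pair. Gefitinib inhibits the EGFR kinase, DC101 blocks VEGFR2, and 4H2 is the PD-1 antibody, PD-1 being the second target in the title of the series. The treatment field records no treatment where the 2 vehicle titles say vehicle, and how many animals gave RNA to a library was not given in the sources used here. Values are TPM, a transcript level per length, so levels of different genes can be set side by side within a library. The sequencing depth is unknown, and with 1 library per group no spread between replicates and no test can be given, so every difference below is between 2 libraries. The term 2-fold refers to log2(TPM + 1), on which low genes differ by less than the ratio of their TPM. Values given as a row of 7 always follow the order vehicle day 3, gefitinib day 3, gefitinib day 14, then vehicle, DC101, 4H2 and the combination at day 21.

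As background, integrins anchor cells to matrix or to other cells and carry signals in both directions across the membrane. The chain pairing sets the ligand. Chains that pair with beta 1 mostly bind collagens, laminins or fibronectin, those that pair with alpha v bind ligands such as fibronectin, vitronectin and latent TGF-beta, and those that pair with beta 2 or beta 7 serve leukocytes on vessel walls and in tissue. Alpha 6 beta 4 holds epithelium to laminin 332 in hemidesmosomes. Laminin alpha 5 is the main alpha chain of mature epithelial basement membranes, alpha 4 that of vessels and alpha 2 that of muscle and nerve.

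The libraries differed in their levels of tissue marker genes. The 8 epithelial markers summed to 2686, 760, 1271, 5936, 3827, 34.3 and 298 TPM, and the 6 lung lineage markers to 18733, 7677, 9528, 13504, 16116, 161.6 and 748.3 TPM. Within the latter list the factor gene Nkx2-1 was at 391.6, 203.5, 122.3, 238.3, 201, 1.1 and 14 TPM, while the surfactant gene Sftpb still stood at 76.2 TPM with 4H2. Markers of the labelled lung tumor were thus lowest with 4H2 and next lowest with the combination, though none was listed at 0. The 8 skeletal muscle genes summed to 64299 and 62028 TPM there against 257 to 13281 TPM in the other 5. Keratinocyte genes were highest with the combination (50.3 TPM summed, 0.900 to 14.4 TPM elsewhere). In bulk tissue, fewer cells of a type and less RNA per cell cannot be told apart. Vehicle of day 3 serves as reference for both gefitinib comparisons and vehicle of day 21 for the 3 antibody comparisons, so differences that share a reference are not independent of each other.

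34 of the 37 genes averaged 1 TPM or more over the libraries and entered the comparisons. The other 3, Itgad, Lama1 and Lamc3, were listed at 0 in at least 1 library. Itgad, an alpha partner of beta 2, was at 0, 0.4, 0.6, 0.3, 0.2, 0.4 and 1 TPM. Lama1, the laminin alpha chain of early embryonic membranes, was at 0, 0.2, 0.3, 0.9, 0.4, 0.2 and 0.2 TPM. Lamc3 was at 0, 0.1, 0.5, 0, 0.1, 0.2 and 0.5 TPM. Of the 37 genes, 22 had their lowest level in the day 3 vehicle library, including all 9 leukocyte subunits, and 12 had it in a library given 4H2, alone or with DC101. The map of levels gives every value.

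**Figure D1:**
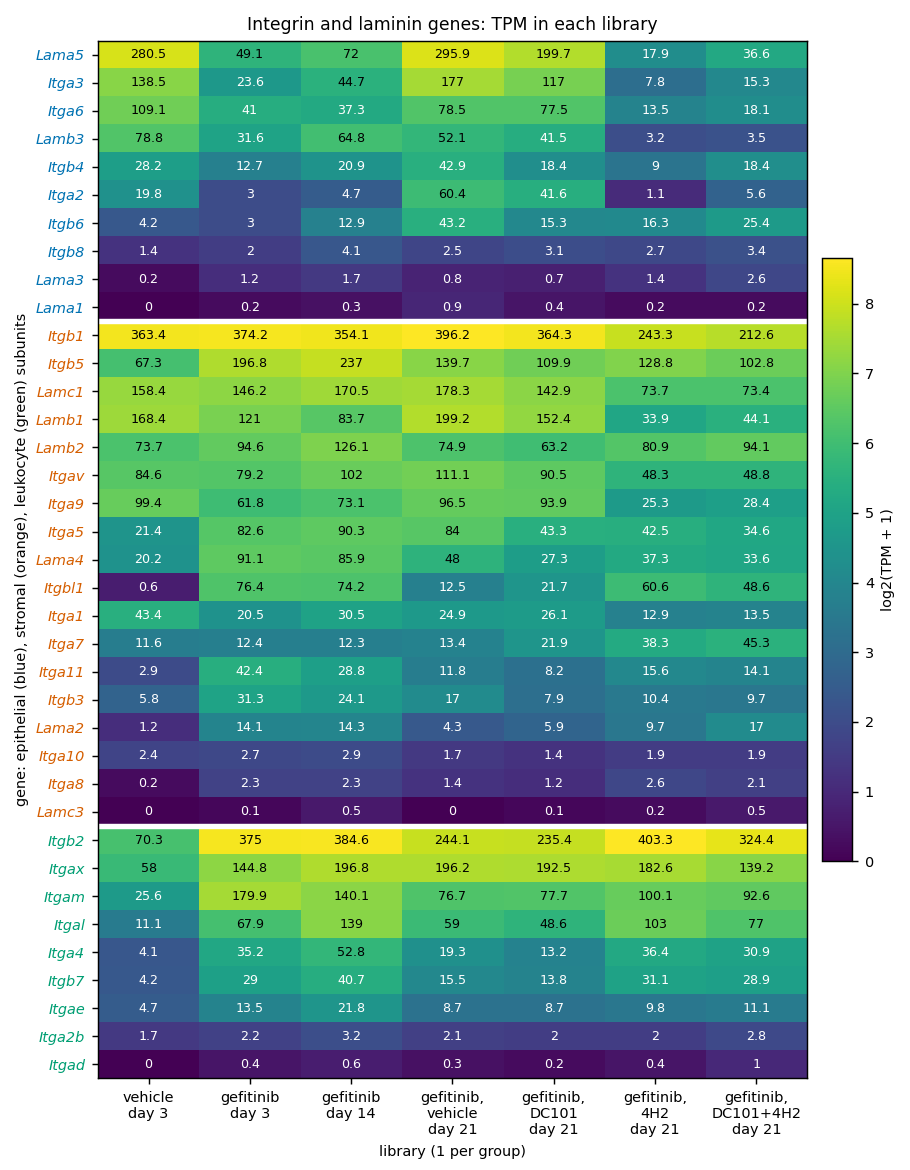
TPM of the 37 genes (rows, by class and then by mean level) in the 7 libraries (columns, 1 per group), with colour showing log2(TPM + 1) and the TPM printed in each cell. Epithelial subunits such as Lama5 and Itga3 are dark in the 4H2 library, and leukocyte subunits such as Itgb2 are darkest in the day 3 vehicle library (70.3 TPM).

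The 10 epithelial subunits summed to 660.7, 167.4, 263.4, 754.2, 515.2, 73.1 and 129.1 TPM. They were high in both vehicle libraries and with DC101, low on gefitinib, and lowest in the libraries with 4H2, the same order as that of the epithelial markers except that day 3 vehicle and DC101 changed places.

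The laminin-binding receptor chains and the epithelial laminin moved with that sum. Itga3 (chromosome 11, 95044475 to 95076844), whose alpha 3 beta 1 receptor binds laminins 511 and 332, was at 138.5, 23.6, 44.7, 177, 117, 7.8 and 15.3 TPM. Itga6 (chromosome 2, 71786886 to 71858427), which pairs with beta 1 or beta 4, was at 109.1, 41, 37.3, 78.5, 77.5, 13.5 and 18.1 TPM. Lama5 (chromosome 2, 180176373 to 180225904) was at 280.5, 49.1, 72, 295.9, 199.7, 17.9 and 36.6 TPM. For each of the 3 genes, the 2 vehicle libraries and the DC101 library lay above the other 4. Itga3 and Lama5 were highest in day 21 vehicle, and Itga6 in day 3 vehicle.

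Itga2 (chromosome 13, 114833081 to 114932100), the alpha chain of the collagen receptor alpha 2 beta 1, had the widest span of the epithelial class, at 19.8, 3, 4.7, 60.4, 41.6, 1.1 and 5.6 TPM. Its level 7 days after gefitinib was above that of day 3 vehicle, and the highest value was 54.9 times the lowest. The next gene on the chromosome, Itga1 (chromosome 13, 114958079 to 115101964), makes the other collagen-binding alpha chain and was at 43.4, 20.5, 30.5, 24.9, 26.1, 12.9 and 13.5 TPM. Itga2 exceeded Itga1 only in the vehicle and DC101 libraries of day 21, at ratios of 2.43 and 1.59, and lay between 0.0853 and 0.456 of it in the other 5. The 250 bases before the start of Itga2 (RefSeq, GRCm38.p6, chr13:114932101-114932350, minus strand) are shown because the gene had the widest span of its class. They hold none of the 3 motifs described with the leukocyte genes, so no base is in capitals.
Itga2: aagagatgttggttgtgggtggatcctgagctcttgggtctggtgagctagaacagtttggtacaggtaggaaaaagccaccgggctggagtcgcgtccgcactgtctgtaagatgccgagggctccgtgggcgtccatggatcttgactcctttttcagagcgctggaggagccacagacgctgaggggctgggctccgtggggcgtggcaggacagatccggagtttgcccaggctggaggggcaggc

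The hemidesmosome chains did not keep together. Itgb4 (chromosome 11, 115974725 to 116008412), the beta 4 chain with its long cytoplasmic tail, was at 28.2, 12.7, 20.9, 42.9, 18.4, 9 and 18.4 TPM. Itga6 was 3.87, 3.23, 1.79, 1.83, 4.21, 1.5 and 0.984 times as abundant as Itgb4. The alpha and beta transcripts were thus about level in the combination library, at 18.1 and 18.4 TPM, and the alpha transcript was the more abundant elsewhere. Lamb3 (chromosome 1, 193294353 to 193343878), the beta chain of laminin 332, was at 78.8, 31.6, 64.8, 52.1, 41.5, 3.2 and 3.5 TPM. Unlike Lama5 and Itga3 it was not higher 7 days after gefitinib than at day 14. Lama3, the alpha chain of laminin 332, was at 0.2, 1.2, 1.7, 0.8, 0.7, 1.4 and 2.6 TPM. Its level was far below that of Lamb3 in all libraries but the 2 with 4H2, and highest in the combination library, where the keratinocyte genes Krt5 and Krt14 were also highest at 24.3 TPM each. The part of keratinocytes in that value was not tested.

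Itgb6 and Itgb8, whose alpha v receptors activate latent TGF-beta, followed another course. Itgb6 (chromosome 2, 60598292 to 60722603), normally an epithelial gene, was at 4.2, 3, 12.9, 43.2, 15.3, 16.3 and 25.4 TPM. It was highest 7 days after gefitinib and, unlike Itga3 or Lama5, was above its day 3 vehicle level in both libraries with 4H2, although Epcam was at 571.2 TPM in day 3 vehicle and at 3 and 20.8 TPM there. The ratio of Itgb6 to Epcam was 0.00735, 0.0371, 0.127, 0.130, 0.0376, 5.43 and 1.22. High ratios with 4H2 and the combination were not particular to Itgb6. They were also the highest for Lama5 (5.97 and 1.76), Itga3 (2.6 and 0.736) and Itgb4 (3 and 0.885). Itgb8 was at 1.4, 2, 4.1, 2.5, 3.1, 2.7 and 3.4 TPM and was below Itgb6 in every library.

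The 9 leukocyte or platelet subunits summed to 179.7, 847.9, 979.6, 621.9, 592.1, 868.7 and 707.9 TPM. The 6 pan-leukocyte markers, among them Ptprc, summed to 424, 2307, 2259, 1180, 1065, 1635 and 1362 TPM beside them. The part of leukocyte number in the subunit levels was not tested. All 9 were lowest in day 3 vehicle, and the antibody libraries of day 21 lay within 2-fold of the day 21 vehicle library for all 8 of them that were compared.

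Itgb2 (chromosome 10, 77530329 to 77565708) encodes beta 2, the common chain of the leukocyte receptors that bind ICAMs and complement fragments, and was at 70.3, 375, 384.6, 244.1, 235.4, 403.3 and 324.4 TPM. Of its alpha partners, Itgal (LFA-1, most leukocytes; chromosome 7, 127296139 to 127335137) was at 11.1, 67.9, 139, 59, 48.6, 103 and 77 TPM. Itgam (Mac-1, myeloid and NK cells; chromosome 7, 128062640 to 128118491) was at 25.6, 179.9, 140.1, 76.7, 77.7, 100.1 and 92.6 TPM. Itgal was thus highest at day 14 of gefitinib and Itgam at day 3, and the ratio of Itgam to Itgal was 2.31 and 2.65 at day 3 without and with gefitinib and 0.972 to 1.60 later. T cell markers summed to 197 TPM at day 3 of gefitinib and 499.6 TPM at day 14, and macrophage markers to 8586 and 9510 TPM.

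Itgax (CD11c, dendritic cells and some macrophages; chromosome 7, 128129526 to 128150657) was at 58, 144.8, 196.8, 196.2, 192.5, 182.6 and 139.2 TPM. Its level 7 days after gefitinib was that of day 14, whereas Itgb2, Itgal and Itgam were lower there. Relative to Ptprc it stood at 3.47, 0.866, 1.20, 2.51, 2.75, 1.20 and 1.26, so the ratio was highest in day 3 vehicle and next in the vehicle and DC101 libraries of day 21. Itgb2 showed the same 3 libraries at the top of its ratio to Ptprc, at 4.21, 3.12 and 3.36, with 2.24 to 2.95 in the others.

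Itga4 and Itgb7 form the receptor for MAdCAM-1 on lymphocytes that home to gut, and Itga4 with beta 1 binds VCAM-1. Itga4 (chromosome 2, 79255426 to 79333114) was at 4.1, 35.2, 52.8, 19.3, 13.2, 36.4 and 30.9 TPM. Itgb7 (chromosome 15, 102215994 to 102233405) was at 4.2, 29, 40.7, 15.5, 13.8, 31.1 and 28.9 TPM. Both put the libraries in the same order, from day 14 of gefitinib through 4H2, day 3 of gefitinib, the combination, day 21 vehicle and DC101 down to day 3 vehicle. Itgae (CD103, which pairs with beta 7 and binds E-cadherin; chromosome 11, 73090505 to 73147449) was at 4.7, 13.5, 21.8, 8.7, 8.7, 9.8 and 11.1 TPM. As a ratio, though not in TPM, Itgae was lower with 4H2 than at day 14 of gefitinib by more than Itgal was. Cdh1, which encodes its ligand E-cadherin, was at 471.9, 168.3, 222.5, 495.1, 380.5, 6.2 and 30.5 TPM. Itga2b, the platelet fibrinogen receptor chain, stayed between 1.7 and 3.2 TPM and passed 2-fold in no comparison. Platelet and megakaryocyte markers were not as flat. Of the 3 of 6 that were compared, Pf4, at 47.9, 166.3, 111, 69, 115.3, 88.8 and 94.3 TPM, was higher at both gefitinib days. Gp1bb was higher at day 3 of gefitinib (1.78), and Gp1ba with 4H2 (1.27) and with the combination (1.34). These 2 were as low as Itga2b, Gp1bb between 0.4 and 3.8 TPM and Gp1ba between 0.7 and 3.3 TPM. None of the 3 was lower in any comparison.

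Itgam, Itgax and Itgad lie next to each other on chromosome 7, with Itgal nearby, and 2 of their starts are shown because these neighbours differ in course. Each run holds bases before the annotated start of the gene (RefSeq, GRCm38.p6, plus strand), for Itgam chr7:128062390-128062639 and for Itgax chr7:128129300-128129525. Capitals mark matches on either strand to GAGGAA, a core bound by the myeloid factor PU.1, to TGANTCA, the AP-1 motif, or to GGAATG, the TEAD motif.
Itgam: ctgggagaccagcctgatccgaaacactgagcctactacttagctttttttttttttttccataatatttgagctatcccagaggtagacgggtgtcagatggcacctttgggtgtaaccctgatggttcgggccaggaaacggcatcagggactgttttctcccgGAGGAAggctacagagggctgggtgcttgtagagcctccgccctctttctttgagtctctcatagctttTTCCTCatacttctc
Itgax: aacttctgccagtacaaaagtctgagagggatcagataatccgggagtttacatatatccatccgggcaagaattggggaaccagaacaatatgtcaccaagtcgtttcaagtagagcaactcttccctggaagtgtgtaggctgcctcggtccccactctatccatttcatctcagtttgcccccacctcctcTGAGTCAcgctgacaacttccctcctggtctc
Itgam held 2 matches to the PU.1 core and Itgax 1 to the AP-1 motif. RefSeq starts were matched for 24 of the 37 genes, with 27 windows of 250 bases. Some starts lie inside the annotated gene. The windows of Itga9, Itgav, Itgb7 and Lamb3, and a window each of Itga3 and Itgb6, were thus wholly inside it. Of the 27 windows, 13 (48.1%) held the PU.1 core, against 23.3% of all 32851 windows. The AP-1 motif was in 1 (3.70%), against 6.75%, and the TEAD motif in 3 (11.1%), against 12.6%. In 1 window, that of Itgb1, a PU.1 and a TEAD match overlapped. A match is a description of letters and not a binding site. The PU.1 core was in 4 of 9 epithelial, 7 of 13 stromal and 2 of 5 leukocyte or platelet windows, too few to set the classes apart. Genes with it included Itga11 and Lama5 and, in the leukocyte or platelet class, Itgam and Itga2b. Those of Itga3, Itgav, Itgb6 and Lamb3 with the core lay wholly inside the gene. The windows of Lama2 and Lamb1 lay inside it for 249 and 147 of their 250 bases, and there the match lay inside too. The windows of Itga4, Itgb7 and Itgax held none, that of Itgb7 lying inside the gene.

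The 18 stromal subunits summed to 1125, 1450, 1513, 1415, 1182, 866 and 825 TPM and spanned the least of the 3 classes. Most of that sum came from broadly made chains. Itgb1 (chromosome 8, 128685654 to 128733579), the partner of most matrix-binding alpha chains, was at 363.4, 374.2, 354.1, 396.2, 364.3, 243.3 and 212.6 TPM. The first 5 libraries lay within 354.1 to 396.2 TPM, and both libraries with 4H2 lay below them. Itgav, the alpha v chain, was at 84.6, 79.2, 102, 111.1, 90.5, 48.3 and 48.8 TPM, and Lamc1, the gamma chain of most laminins, at 158.4, 146.2, 170.5, 178.3, 142.9, 73.7 and 73.4 TPM. Both had the same split as Itgb1.

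Lamb1 and Lamb2, the alternative beta chains of most laminins, differed. Lamb1 (chromosome 12, 31265146 to 31329644) was at 168.4, 121, 83.7, 199.2, 152.4, 33.9 and 44.1 TPM, a course like that of the epithelial chains. Lamb2 (chromosome 9, 108479847 to 108490530) was at 73.7, 94.6, 126.1, 74.9, 63.2, 80.9 and 94.1 TPM. Lamb1 was the more abundant of the pair except at day 14 of gefitinib and in the libraries with 4H2. Itga9, whose receptor binds tenascin and osteopontin, was at 99.4, 61.8, 73.1, 96.5, 93.9, 25.3 and 28.4 TPM and so also had its lowest values with 4H2.

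Itga11, Lama4 and Itga5 were lowest in day 3 vehicle and higher on gefitinib. Itga11, a collagen receptor chain of fibroblasts (chromosome 9, 62677855 to 62783979), was at 2.9, 42.4, 28.8, 11.8, 8.2, 15.6 and 14.1 TPM. Lama4 was at 20.2, 91.1, 85.9, 48, 27.3, 37.3 and 33.6 TPM. Itga5, the fibronectin receptor chain (chromosome 15, 103344286 to 103366791), was at 21.4, 82.6, 90.3, 84, 43.3, 42.5 and 34.6 TPM. Itga5 was close to its gefitinib level 7 days after gefitinib, whereas Itga11 and Lama4 were lower there. Fibroblast markers summed to 1557, 17530, 9290, 6467, 5272, 7209 and 7030 TPM and endothelial markers to 132, 412, 272, 287, 203, 211 and 206 TPM, and the part of these cells in the levels was not tested. The bases before the start of Itga11 (chr9:62677605-62677854, plus strand) are shown beside those of the myeloid Itgam, since this fibroblast gene also holds a match to the PU.1 core, in capitals.
Itga11: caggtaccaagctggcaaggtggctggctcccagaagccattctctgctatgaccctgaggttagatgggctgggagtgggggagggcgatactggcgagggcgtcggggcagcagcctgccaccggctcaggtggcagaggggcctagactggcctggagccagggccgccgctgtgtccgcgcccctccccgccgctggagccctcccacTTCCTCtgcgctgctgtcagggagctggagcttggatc

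Itgb3 and Itgb5, which pair with alpha v, were also lowest in day 3 vehicle. Itgb3 (chromosome 11, 104608000 to 104670476), a chain of activated endothelium, osteoclasts and platelets, was at 5.8, 31.3, 24.1, 17, 7.9, 10.4 and 9.7 TPM. Itgb5 (chromosome 16, 33829665 to 33949338), a vitronectin receptor chain, was at 67.3, 196.8, 237, 139.7, 109.9, 128.8 and 102.8 TPM. Itgb5 exceeded Itgb3 between 6.29 and 13.9 times, with the smallest ratio at day 3 of gefitinib.

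Itgbl1 (chromosome 14, 123659937 to 123978865), a secreted protein with integrin-like EGF repeats and no membrane anchor, had the widest span of all 34 genes, at 0.6, 76.4, 74.2, 12.5, 21.7, 60.6 and 48.6 TPM. Both gefitinib libraries and both with 4H2 were high, and the vehicle and DC101 libraries low. The fibroblast collagen gene Col1a1 differed less among the day 21 libraries, at 943.5, 10262, 5501, 3874, 3124, 4306 and 4153 TPM. Other fibroblast markers were nearer to Itgbl1 there. Dcn was at 48.2, 315.8, 321.6, 101.6, 142.4, 217.6 and 347.7 TPM. Against day 21 vehicle, 1 of the 6 fibroblast markers (Dcn) was 2-fold higher with 4H2. With the combination 2 were (Dcn and Lum), and none was lower with either. Lama2, the laminin chain of muscle and nerve, was at 1.2, 14.1, 14.3, 4.3, 5.9, 9.7 and 17 TPM. Itga7 (chromosome 10, 128933421 to 128958286), the laminin receptor chain of skeletal muscle, was at 11.6, 12.4, 12.3, 13.4, 21.9, 38.3 and 45.3 TPM, highest in the libraries with the most muscle RNA, in which Acta1 was at 26090 and 24234 TPM. Muscle markers were also higher with DC101 (Acta1 5309 TPM) than in day 21 vehicle (1201 TPM), and the part of muscle in the levels of Lama2 and Itga7 was not tested. Itga8 stayed between 0.2 and 2.6 TPM and the cartilage collagen receptor chain Itga10 between 1.4 and 2.9 TPM.

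**Figure D2:**
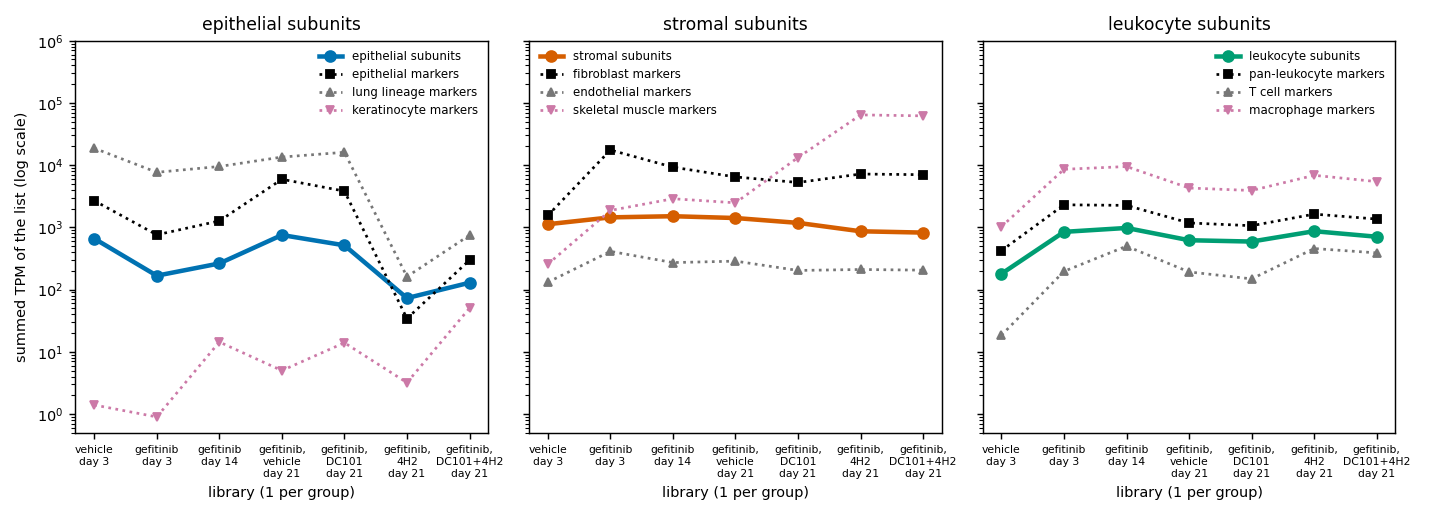
Summed TPM on a log axis of each subunit class (thick lines) and of marker lists (dotted lines) in the 7 libraries, 1 point per library. The epithelial subunits and the epithelial markers are both lowest in the 4H2 library, at 73.1 and 34.3 TPM. In day 21 vehicle they are at 754.2 and 5936 TPM, so the markers differ by far more. Skeletal muscle markers reach 64299 TPM in the 4H2 library.

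The make-up of the chain pools shifted between libraries. Among the 8 integrin beta genes, Itgb1 held 66.7, 36.5, 32.8, 44.0, 47.4, 28.8 and 29.3% of the summed TPM and Itgb2 12.9, 36.6, 35.7, 27.1, 30.6, 47.7 and 44.7%. Itgb1 led in both vehicle libraries and with DC101, Itgb2 led at day 14 of gefitinib and with 4H2, and at day 3 of gefitinib they were level. Over the 5 libraries without 4H2 the Itgb2 share ranged from 12.9 to 36.6%. Among the 18 alpha genes, the 7 leukocyte chains held 16.5, 54.4, 56.4, 35.4, 39.6, 67.4 and 60.9%, and the 3 epithelial chains Itga2, Itga3 and Itga6 41.9, 8.29, 8.82, 30.9, 27.3, 3.48 and 6.70%. The alpha pool itself summed to 582 to 1023 TPM, so the shares varied more than the total.

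Among the 5 laminin alpha genes, Lama5 held 92.9, 31.5, 41.3, 84.6, 85.3, 26.9 and 40.7% and Lama4 6.69, 58.5, 49.3, 13.7, 11.7, 56.1 and 37.3%. The epithelial chain was in the large majority in both vehicle libraries and with DC101. The vascular chain was the most abundant on gefitinib and with 4H2 but not with the combination. The pool itself summed to 302.1, 155.7, 174.2, 349.9, 234, 66.5 and 90 TPM. Against day 21 vehicle the Lama4 share was thus larger with 4H2 while Lama4 itself was lower, at 37.3 against 48 TPM. Lama2 reached 14.6 and 18.9% in the 2 libraries with 4H2, against 0.397 to 9.06% in the other 5.

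**Figure D3:**
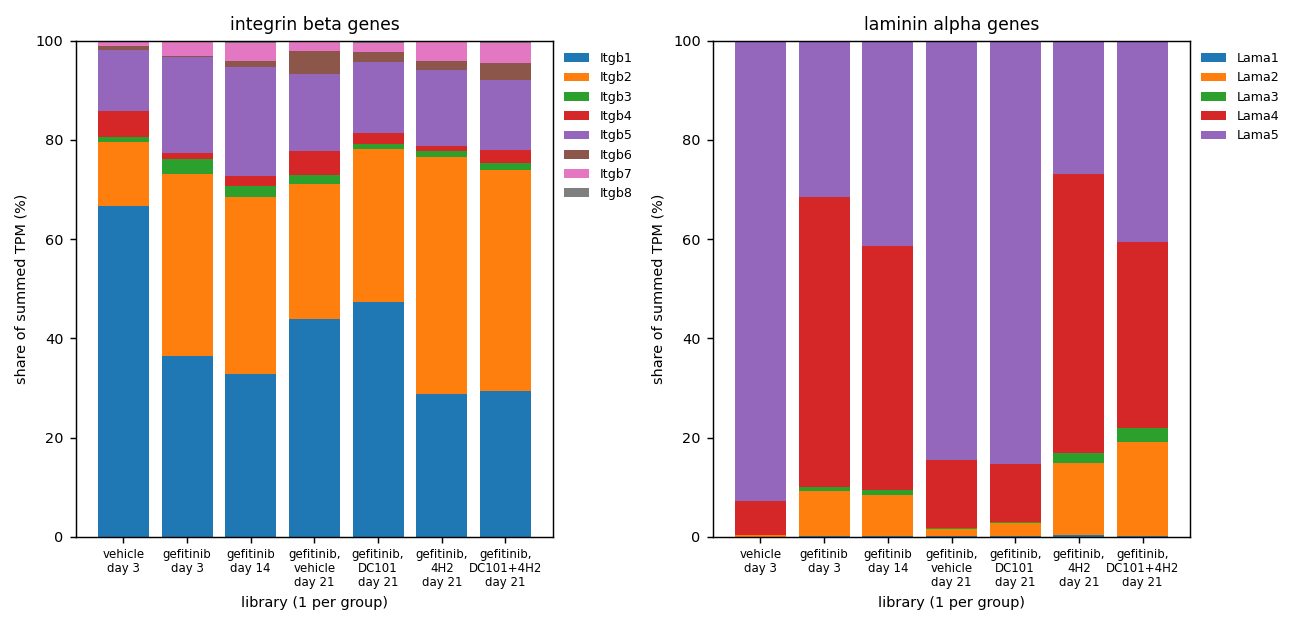
Share of the summed TPM held by each gene (stacked bars, in percent) among the 8 integrin beta genes (left) and the 5 laminin alpha genes (right) in the 7 libraries, 1 per group. Lama5 holds 92.9% of the laminin alpha pool in day 3 vehicle and 31.5% at day 3 of gefitinib.

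At day 3 of gefitinib against day 3 vehicle, most epithelial subunits were lower, most leukocyte subunits higher, and the stromal subunits mixed. Of the 34 genes compared, 15 were at least 2-fold higher, where 20.8% of all 13998 genes were, and 7 lower, where 14.4% were. Lower were 6 of 9 epithelial subunits, led by Itga3 (log2 difference -2.50), Lama5 (-2.49) and Itga2 (-2.38), and none was higher. Higher were 7 of 8 leukocyte subunits, with Itga4 at 2.83 and Itgam at 2.77, and none was lower. Of 17 stromal subunits 8 were higher, with Itgbl1 at 5.60 and Itga11 at 3.48, 1, Itga1 (-1.05), was lower, and 8 did not pass. With a pseudocount of 5, Itga1 (-0.92), Itgb4 (-0.91), Itgae (0.93) and Itga8 (0.49) did not pass 2-fold, and Itga1 (-0.93) and Itgb4 (-0.98) did not under median-of-ratios rescaling either. The class medians were -1.29, 2.45 and 0.36 for epithelial, leukocyte and stromal subunits, beside -0.09 for all genes.

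At day 14 of gefitinib against the same vehicle library, 18 of the 34 genes were higher (22.7% of all genes) and 5 lower (12.7%). Higher were 7 of 8 leukocyte subunits, led by Itgal (3.53) and Itga4 (3.40), and 8 of 17 stromal subunits, led by Itgbl1 (5.55) and Itga11 (2.93). The epithelial class was divided, in that Itgb6 (1.42), Lama3 (1.17) and Itgb8 (1.09) were higher while Lama5 (-1.95), Itga2 (-1.87), Itga3 (-1.61) and Itga6 (-1.52) were lower. This division rests on the pseudocount, since with one of 5 none of the 3 higher genes passed 2-fold (Itgb6 0.96, Itgb8 0.51, Lama3 0.37), and neither did the stromal Itga8 (0.49). Lamb1, the only stromal subunit counted as lower, stood exactly at the 2-fold limit. Class medians were -0.42, 2.42 and 0.77, beside 0.03 for all genes. The reference was taken at day 3, so gefitinib and time in the animal cannot be told apart.

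In the library taken 7 days after gefitinib, against day 14 of gefitinib, 7 of the 34 genes were higher (7.62% of all genes) and 7 lower (7.89%). Higher were 6 of 9 epithelial subunits, with Itga2 at 3.43, Lama5 at 2.02, Itga3 at 1.96 and Itgb6 at 1.67, and Lamb1 (1.24), while Itgb4 was just past the limit. Lower were the leukocyte chains Itga4 (-1.41), Itgb7 (-1.34), Itgae (-1.23) and Itgal (-1.22) and the stromal genes Itgbl1 (-2.48), Lama2 (-1.53) and Itga11 (-1.22). Itgb2 (-0.65) and Itgam (-0.86) did not pass 2-fold, and Itgax did not differ beyond 1 TPM. With a pseudocount of 5, Itga6 (0.98), Itgb4 (0.89) and Itgae (-0.97) did not pass either. Class medians were 1.05, -1.04 and -0.46 for epithelial, leukocyte and stromal subunits, beside -0.01 for all genes. The end of gefitinib and 7 more days cannot be told apart in this pair.

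With DC101 against vehicle at day 21, none of the 34 genes was 2-fold higher (3.12% of all genes, a share that gives about 1 in 34) and 3 were lower (1.11%). These were Itgb6 (-1.44), Itgb4 (-1.18) and Itgb3 (-1.02), all integrin beta chains. Itgb3 did not pass 2-fold with a pseudocount of 5 (-0.77) or under median-of-ratios rescaling (-0.97). Itga5 (-0.94) and Lama4 (-0.79) came next, and Itgbl1 (0.75) and Itga7 (0.67) were the most above 0. The epithelial markers summed to 3827 against 5936 TPM, yet Epcam was at 406.7 against 332.3 TPM and Itga6 at 77.5 against 78.5 TPM. The epithelial and stromal medians were -0.53 and -0.24, and that of the 8 leukocyte subunits -0.05, beside -0.05 for all genes.

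With 4H2 against vehicle at day 21, 3 of the 34 genes were higher (10.9% of all genes) and 11 lower (20.0%). Lower were 7 of 9 epithelial subunits, with Itga2 at -4.87, Itga3 at -4.34, Lama5 at -3.97 and Lamb3 at -3.66. The others were Lamb1 (-2.52), Itga9 (-1.89), Lamc1 (-1.26) and Itgav (-1.19), all of the stromal class. Higher were Itgbl1 (2.19), Itga7 (1.45) and Lama2 (1.01), the last of which was at 0.66 with a pseudocount of 5. The epithelial and stromal medians were -2.45 and -0.36, and leukocyte subunits had a median of 0.55, with Itgb7 (0.96) and Itga4 (0.88) highest. The median of all genes was -0.21. Under median-of-ratios rescaling it was 0.02, all genes split into 15.0% higher and 15.6% lower, and 6 members were higher, the added ones being Itga4, Itgal and Itgb7 (1.13, 1.04 and 1.20), while Itgav was at -0.93.

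With both antibodies against vehicle at day 21, 4 of the 34 genes were higher (11.7% of all genes) and 11 lower (17.0%). Lower were Lamb3 (-3.56), Itga3 (-3.45), Itga2 (-3.22), Lama5 (-2.98), Itga6 (-2.06) and Itgb4 (-1.18) among epithelial subunits, and Lamb1, Itga9, Lamc1, Itga5 and Itgav among stromal ones (-2.15 to -1.17). Higher were Itgbl1 (1.88), Lama2 (1.76), Itga7 (1.68) and, exactly at the limit, Lama3, which was at 0.39 with a pseudocount of 5. Itgb6 was at -0.74 and did not pass 2-fold here. The epithelial, leukocyte and stromal medians were -2.06, 0.35 and -0.50, and that of all genes -0.17. Under median-of-ratios rescaling it was 0.05, with 15.2% of all genes higher and 12.6% lower, Itgb7 was at 1.09, and Itgb4 and Itgav at -0.95 and -0.93.

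**Figure D4:**
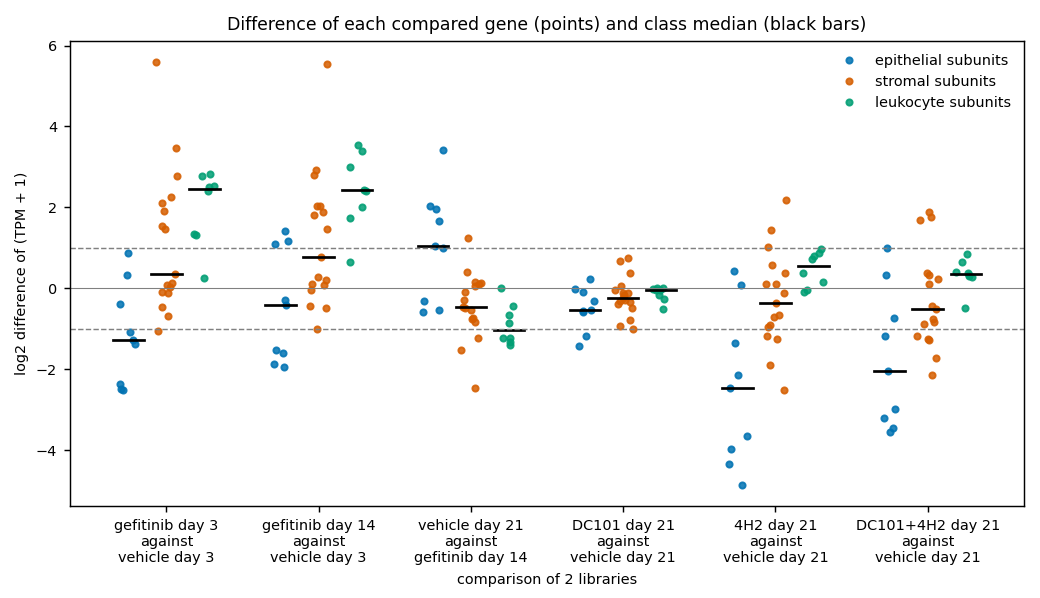
Difference in log2(TPM + 1) of each of the 34 compared genes (points, coloured by class) in the 6 comparisons of 2 libraries, with the class median as a black bar and dashed lines at 2-fold. Epithelial points lie mostly below 0 on gefitinib and with 4H2 and above it 7 days after gefitinib, where their median is 1.05.

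Partner genes from lists chosen by function were counted the same way. For these counts the shares over all genes, in the order of the 6 comparisons above, were 20.8, 22.7, 7.62, 3.12, 10.9 and 11.7% higher and 14.4, 12.7, 7.89, 1.11, 20.0 and 17.0% lower. Of 12 matrix ligands of integrins compared, 9 (75.0%) were higher and none lower on gefitinib at either day, and 3 were higher and 1 lower 7 days after gefitinib. With DC101, 4H2 and the combination 5, 6 and 6 were lower and none higher, the 5 with DC101 being 41.7% of the list. In the order of the 6 comparisons the median log2 difference of this list was 1.64, 1.51, 0.06, -0.81, -1.22 and -1.33, beside the medians of all genes given above. Fn1, fibronectin, was at 740.3, 1428, 712.5, 1315, 680.9, 298.8 and 316.9 TPM. Tnc, tenascin C, was at 88.8, 192.2, 148.2, 560, 131, 20.4 and 20.8 TPM. Spp1, osteopontin, was at 34, 44.4, 74.3, 265.8, 83.8, 31 and 21.2 TPM. Tnc and Spp1, like Itgb6 and Itga2, had their highest level 7 days after gefitinib.

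Of 11 basement membrane partners of laminin compared, 6 were higher and 2 lower at day 3 of gefitinib, 5 and 4 at day 14, and 6 and none 7 days after gefitinib. With DC101 2 were lower, with 4H2 and with the combination 5 were, and none was higher. The 18.2% lower at day 3 of gefitinib lay near the 14.4% of all genes. The list medians were 1.11, 0.07, 1.10, -0.55, -0.74 and -0.72. Col4a1, a chain of the type IV collagen network, was at 605.7, 561.4, 251.8, 646, 533, 141.4 and 143.4 TPM. Nid2, which links laminin to that network, was at 12.3, 53.8, 13, 35.2, 12.7, 20.6 and 21 TPM and was lower with DC101. A list of hemidesmosome and laminin-binding membrane genes, with 7 compared, had medians of -0.01, -0.15, 0.59, -0.17, -0.97 and -0.87. Its member Bcam, a receptor for laminin alpha 5, was at 896.1, 279.5, 142.6, 659.7, 699.1, 52.1 and 96.6 TPM. Like Lama5 it was highest in the vehicle and DC101 libraries and lowest with 4H2. In that list 1 gene was higher and 2 lower at each gefitinib day, 1 was higher and none lower 7 days after gefitinib, none passed with DC101, and 1 was higher and 3 lower with 4H2 and with the combination. A single gene is 14.3% of this list, so its higher counts were not apart from the shares of all genes.

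Of 23 integrin adaptor and kinase genes, 7 were higher and 3 lower at each gefitinib day, 1 was higher and 2 lower 7 days after gefitinib, none passed 2-fold with DC101, and 3 were higher and 5 lower with 4H2 and with the combination. Most of these counts lay near the shares of all genes, with 13.0% lower on gefitinib and 13.0% higher and 21.7% lower in both libraries with 4H2, and the 30.4% higher on gefitinib lay somewhat above them. The list medians were 0.35, 0.38, -0.19, -0.11, 0.16 and 0.05. The kindlins, which with talin switch integrins on, differed in course. Fermt1, the epithelial kindlin, was at 42.1, 1, 1.7, 24, 24.3, 0.3 and 2.3 TPM. Fermt3, the leukocyte kindlin, was at 35.9, 211.8, 234.7, 105, 96.9, 176.2 and 158.4 TPM. Fermt2, the broadly made kindlin, was at 33, 29.2, 22.7, 38.1, 33.8, 56.6 and 64.6 TPM. Fermt1 thus lay with Itga3 and Lama5, and Fermt3 with Itgb2, in which libraries were high and low. The focal adhesion kinase gene Ptk2 was at 56.5, 26, 26.5, 47.9, 41.8, 11.5 and 16.8 TPM, and its leukocyte relative Ptk2b at 23.1, 71.1, 123.1, 63.2, 47.5, 113.6 and 92.8 TPM.

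Among 8 counter-receptors of leukocyte integrins compared, 5 were higher and 1 lower at day 3 of gefitinib, and 4 and 2 at day 14. There was 1 higher and 1 lower 7 days after gefitinib, none passed with DC101, and with 4H2 and with the combination 3 were lower and none higher. The 12.5% lower at day 3 of gefitinib lay near the 14.4% of all genes. The list medians were 1.13, 0.95, 0.22, -0.23, -0.30 and -0.50. Icam1, which binds LFA-1 and Mac-1, was at 103, 219.1, 308.3, 429.9, 257.4, 192.7 and 146.6 TPM. Vcam1, which binds alpha 4 beta 1, was at 81.1, 207.5, 239.1, 145.9, 137.9, 113.7 and 117.5 TPM. Madcam1, the ligand of alpha 4 beta 7, was between 0 and 1.1 TPM throughout. Icam1 was lower with 4H2 and with the combination than in day 21 vehicle by 2-fold, while its receptor chains Itgal, Itgam and Itgb2 were not.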

How the data were processed

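Per the labels' protocols, total RNA of frozen tumors was depleted of ribosomal RNA and made into strand-specific libraries. The authors deposited TPM for 21892 gene symbols, rounded to 1 decimal, with each library summing to about 1000000; per the submitters' processing notes the build was GRCm38.p6, and the aligner, counter and annotation were not given in the sources used here. Depth cannot be read from TPM, so no counting interval can be given. A value of 0 means only listed at 0, since all 13 mitochondrially encoded protein genes are listed at 0 in every library.

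Here, log2((TPM + 1) / (TPM + 1)) was computed in Python 3.11.15 (pandas 2.3.3) between 2 libraries for the 13998 genes averaging 1 TPM or more, and a gene was counted from 2-fold on, limit included. All 37 members are named; other genes are cell type markers, or the 3 highest by mean TPM of a partner list, or its highest or lowest past 2-fold in a comparison, except Spp1, Fermt2, Fermt3, Ptk2, Ptk2b and Madcam1, which were chosen after their values were seen. Members and lists were chosen with earlier results of these data known. Motifs were searched in the 250 bases before RefSeq starts of the same build, some of which lie inside the annotated gene. The code of the calculation was checked on copies of the day 3 vehicle library with folds put into genes high in every library. No noise was added and low genes were not changed, so the check covers only the arithmetic. Alternatives were pseudocounts of 0.1 and 5, leaving out the filter, raising it to 5 TPM, and a median-of-ratios rescaling over genes at 10 TPM or more throughout, and, chosen after seeing the data, a rescaling without 8 skeletal muscle genes.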

Additional observations from a re-analysis of the deposited data

How the results depend on the processing

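Of 72 counts of members past 2-fold (12 counts under 6 alternatives), 71 stayed within 1.5 times the reported count. Leaving out the filter added only Itgad, Lama1 and Lamc3, none above 1 TPM in any library, and raising it only dropped genes. Neither changed the value of any gene, so the counts under these alternatives could hardly move. The exception was the number higher with 4H2 against day 21 vehicle, which was 3 as reported and 6 under median-of-ratios rescaling. No member past 2-fold changed direction under any alternative. Single genes crossed the 2-fold limit in 15 of 204 values with a pseudocount of 5, in 12 of 204 under median-of-ratios rescaling, in 3 of 204 with a pseudocount of 0.1 and in 2 of 204 without skeletal muscle genes. Itgb3 with DC101 was at -0.97 under median-of-ratios rescaling, and Itgb4 at day 3 of gefitinib, 7 days after gefitinib and with the combination was at -0.98, 0.97 and -0.95. No paired analysis was possible because each group has 1 library. The unknown depth limits the low genes most, those near 1 TPM such as Lama3, Itga8 and Itga10.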
